A study of Mus musculus with 2 samples.

Results

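Cajal-Retzius cells are neurons of the outermost layer of the cortex and hippocampus that secrete reelin. They were sought here among dissociated hippocampal cells as barcodes with at least 500 genes and at most 15% of UMIs (unique molecular identifiers, each counting 1 captured RNA molecule) from mitochondrial genes, with at least 2 UMIs of Reln and at least 1 UMI each of 2 or more of Trp73, Lhx1 and Lhx5. The rule found 182 barcodes among 14560 that passed the gene and mitochondrial limits, 75 of 8125 in the 60TM library and 107 of 6435 in the WT library. The 60TM library came from mice labelled GFAP-hGFAP (60TM) on the C57BL6/J background, that is with a human GFAP transgene, and the WT library from C57BL6/J mice, all 7 weeks old. GFAP is an intermediate filament of astrocytes, and 60TM mice model Alexander disease, in which GFAP builds up in astrocytes. Each genotype had 1 library of cells from 3 mice, with no map from barcodes to mice, made from papain-dissociated hippocampus with 10x Genomics 3' chemistry. No difference between genotypes could therefore be tested: no replicate check exists, no p-values are given, and all intervals are 95% and cover counting error only.

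The 60TM library held 8733 barcodes and 80684152 UMIs and the WT library 6861 barcodes and 63532407 UMIs, with a median of 7666 UMIs per passing barcode in 60TM and 7481 in WT. Members had a median of 10295 UMIs in 60TM (1012 to 59390) and 8678 in WT (1104 to 34577), and a median of 3783 genes in 60TM and 3404 in WT.

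In the cortex and hippocampus, Cajal-Retzius cells arise early, at borders of the developing forebrain, and reach their layer by migrating beneath the pial surface. The reelin they release binds the receptors VLDLR and APOER2 (gene Lrp8) on other neurons, acts through the adaptor DAB1 and guides how those neurons settle into layers. Most neocortical Cajal-Retzius cells of the mouse die in the first postnatal weeks, whereas in the hippocampus a part persists into adulthood. Trp73 encodes p73, a relative of p53 needed for the survival of these cells, and Lhx1 and Lhx5 encode LIM-homeodomain transcription factors.

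The start regions of the genes that define these cells, and of Nhlh2, a basic helix-loop-helix factor gene that was not in the rule, are shown because their products mark the same cells. Cacna2d2, a calcium channel subunit gene outside the rule, is shown as a further gene that marks them. Trp73 has 2 start sites in this table, one upstream and one inside the gene, and 3' counts cannot tell their transcripts apart. Each sequence runs from 250 bases before the start to 50 bases after it (RefSeq, GRCm38.p6). Capitals mark the E-box CAGCTG, a palindrome and so read alike on both strands. Lhx5 is named only.
Reln (chr5:22344656-22344955, minus strand): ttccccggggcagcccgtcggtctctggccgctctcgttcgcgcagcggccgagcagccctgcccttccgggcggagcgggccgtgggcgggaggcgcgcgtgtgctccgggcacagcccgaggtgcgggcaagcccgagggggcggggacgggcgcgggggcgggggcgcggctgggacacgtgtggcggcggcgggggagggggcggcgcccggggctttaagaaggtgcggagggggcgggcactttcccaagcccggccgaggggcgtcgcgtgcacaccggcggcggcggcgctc
Trp73, inner start (chr4:154097124-154097423, minus strand): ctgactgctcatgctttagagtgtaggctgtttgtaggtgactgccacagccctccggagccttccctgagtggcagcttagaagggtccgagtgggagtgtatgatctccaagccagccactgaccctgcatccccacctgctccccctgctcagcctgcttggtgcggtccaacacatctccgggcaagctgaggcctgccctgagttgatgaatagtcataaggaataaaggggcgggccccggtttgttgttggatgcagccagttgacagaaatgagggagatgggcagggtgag
Trp73, upstream start (chr4:154139826-154140125, minus strand): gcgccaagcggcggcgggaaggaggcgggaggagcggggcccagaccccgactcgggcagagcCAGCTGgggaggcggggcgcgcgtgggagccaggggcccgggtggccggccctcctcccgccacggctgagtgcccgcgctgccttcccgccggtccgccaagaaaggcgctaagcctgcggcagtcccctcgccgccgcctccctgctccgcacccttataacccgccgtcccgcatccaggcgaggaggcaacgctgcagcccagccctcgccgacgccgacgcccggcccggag
Lhx1 (chr11:84525485-84525784, minus strand): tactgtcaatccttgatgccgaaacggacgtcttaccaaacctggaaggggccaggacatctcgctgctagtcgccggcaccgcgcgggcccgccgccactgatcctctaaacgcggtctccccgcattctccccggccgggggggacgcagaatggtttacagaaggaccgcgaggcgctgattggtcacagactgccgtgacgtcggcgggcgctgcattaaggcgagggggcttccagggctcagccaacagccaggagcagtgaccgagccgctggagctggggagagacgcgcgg
Nhlh2 (chr3:102009895-102010194, plus strand): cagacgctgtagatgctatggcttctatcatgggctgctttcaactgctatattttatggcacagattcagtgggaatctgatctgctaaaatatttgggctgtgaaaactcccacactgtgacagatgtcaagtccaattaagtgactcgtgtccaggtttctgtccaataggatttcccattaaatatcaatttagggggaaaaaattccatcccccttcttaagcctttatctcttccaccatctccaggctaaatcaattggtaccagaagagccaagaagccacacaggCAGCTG
Cacna2d2 (chr9:107399630-107399929, plus strand): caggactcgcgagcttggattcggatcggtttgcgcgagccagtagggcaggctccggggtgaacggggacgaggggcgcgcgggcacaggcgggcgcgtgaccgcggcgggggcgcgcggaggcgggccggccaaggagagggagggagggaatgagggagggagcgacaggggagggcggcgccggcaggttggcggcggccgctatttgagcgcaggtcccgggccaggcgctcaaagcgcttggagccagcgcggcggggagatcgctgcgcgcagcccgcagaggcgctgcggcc
The E-box CAGCTG was in 16.3% of all 32851 promoters of this table, and in 2 of the 14 promoters matched to the 4 rule genes and the 15 genes highest over mature neurons below (13 of these 19 genes matched). The homeodomain motif TAATTA, also a palindrome, was in 5.29% of all promoters and in 1 of the 14 (Tmem163). The Ebf motif, TCCC and GGGA with 2 bases of any kind between them, searched on both strands, was in 0.904% of all promoters and in 0 of the 14. The motifs do not overlap in the sequences shown. The GC content was 80.7% for Reln, 77.7% and 57.7% for the upstream and inner starts of Trp73, 65.7% for Lhx1, 43.3% for Nhlh2 and 75.7% for Cacna2d2, with a median of 52.7% over all promoters.

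The values that chose the members are given as a description. Reln (chromosome 5, 21884454 to 22344702, minus strand, GRCm38), the gene of the secreted signal, had a median of 22 UMIs per barcode in 60TM (range 4 to 136) and 17 in WT (range 2 to 60). Trp73 (chromosome 4, 154056253 to 154140208, minus strand) had a median of 3 UMIs in 60TM (0 to 18) and 3 in WT (0 to 15), Lhx1 (chromosome 11, 84518284 to 84525535, minus strand) 6 in 60TM (0 to 25) and 5 in WT (0 to 26), and Lhx5 (chromosome 5, 120431699 to 120441223, plus strand) 1 in 60TM (0 to 8) and 1 in WT (0 to 6). All 3 factors were seen in 52.0% of members in 60TM and 48.6% in WT, and Trp73 with Lhx1 but no Lhx5 in 38.7% in 60TM and 45.8% in WT. The members therefore stood well above the Reln limit: 1 member in 60TM and 3 in WT had 2 to 4 Reln UMIs. Just outside, 18 barcodes in 60TM and 20 in WT had at least 2 Reln UMIs and 1 factor. Those in 60TM had a median of 11 Reln UMIs and 1885 CPM (counts scaled to 1000000 UMIs of the set) of Ndnf, and those in WT 3 Reln UMIs and 342 CPM. With no factor at all stood 24 barcodes in 60TM and 14 in WT, which carried GABA-synthesis genes (Gad2 at 219 CPM in 60TM and 2105 CPM in WT). No barcode with 2 or more factors had 0 Reln UMIs in either library, and 2 in 60TM and 0 in WT had 1.

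Some members carried RNA of glia beside the neuronal profile. Over 0.5% of UMIs came from 10 marker lists of non-neuronal cells in 21 of 75 members in 60TM and 16 of 107 in WT. Among the members below that limit the highest share was 0.439% in 60TM and 0.415% in WT, and above it the lowest was 0.664% in 60TM and 0.770% in WT. Oligodendrocyte markers led in 10 of these barcodes in 60TM and 7 in WT, astrocyte markers in 6 in 60TM and 3 in WT, and microglia markers in 5 in 60TM and 6 in WT. Their median depth was 18159 UMIs in 60TM and 18281 in WT, against 9667 in 60TM and 8338 in WT for the other members. Scrublet, which scores how much a barcode resembles the sum of others, placed 17 of the 21 in 60TM and 15 of the 16 in WT among its highest scores, and 2 of the 54 others in 60TM and 1 of the 91 in WT. They are called mixed barcodes below. The limit was set after the values had been seen. Gfap, Slc1a3, Clu, Aldoc and Ttr are among the genes of these lists. Lower levels of list genes without mixed barcodes therefore follow in part from the limit. Values and counts are without mixed barcodes unless all members or all cells are named, and a count of list members is also given with all cells where it moves by over 1.5 times. The 2 libraries shared 20 barcode sequences, 0 of them among members.

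**Figure D1:**
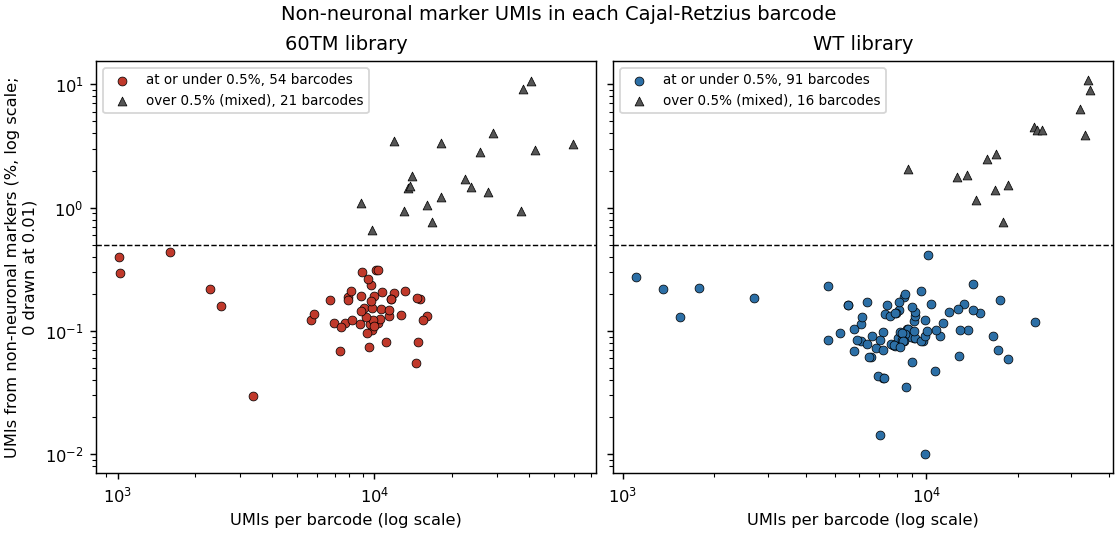
Each point is 1 Cajal-Retzius barcode, with its total UMIs on the x axis and the percent of UMIs from 10 non-neuronal marker lists on the y axis, both on log scales, for 60TM (left) and WT (right). Triangles mark the 21 barcodes in 60TM and the 16 in WT above the dashed line at 0.5%, which stand apart from the other members and are mostly deeper.

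Without the mixed barcodes the members summed to 500370 UMIs in 60TM (54 cells) and 799272 in WT (91 cells). All 6 general neuron markers were detected, with a summed level of 5888 CPM in 60TM and 6490 CPM in WT, against 499.6 CPM in 60TM and 438 CPM in WT in all other passing barcodes. The microglia list summed to 81.9 CPM in 60TM and 56.3 CPM in WT (12008 in 60TM and 11234 in WT in the other barcodes), and the oligodendrocyte list to 272 CPM in 60TM and 266 CPM in WT (17609 in 60TM and 35799 in WT in the others). The astrocyte list summed to 254 CPM in 60TM and 248 CPM in WT, against 7166 in 60TM and 4201 in WT in the other barcodes. The choroid plexus list differed between libraries, at 308 CPM in 60TM and 20.0 CPM in WT, and its level in the other barcodes was 18708 CPM in 60TM and 4749 CPM in WT, with Clic6 at 0 in both. The excitatory list summed to 32.0 CPM in 60TM and 15.01 CPM in WT, and the inhibitory list to 5.996 CPM in 60TM and 8.76 CPM in WT with Lhx6 at 0 in both. The 4 markers of the label, which chose the cells, summed to 3771 CPM in 60TM and 3412 CPM in WT, against 20.1 CPM in 60TM and 17.5 CPM in WT in the other barcodes.

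The profile was set against neurons of the same libraries, chosen by other rules. Mature neurons had at least 2 UMIs of Snap25, of Syt1 and of Slc17a7, Gad1 and Gad2 together, and met neither rule that follows (39 cells in 60TM and 20 in WT without mixed barcodes). Immature neurons had at least 2 UMIs of Dcx and at least 1 UMI each of 2 or more of Neurod1, Prox1, Igfbpl1 and Neurod2 (194 cells in 60TM and 234 in WT). Interneurons met the first rule and had 2 or more of Dlx1, Dlx2, Dlx5 and Dlx6os1 (10 cells in 60TM and 11 in WT). Differences in the genes these rules used follow from the rules. Such genes were not left out of the ranks and list counts below, where they are a description only. Among the 4582 genes that reached 100 UMIs, 10.9% had at least 2 times the level of mature neurons in Cajal-Retzius cells of both libraries and 14.4% were at least 2-fold lower. With all cells, 10.2% of 6605 genes were higher and 13.2% lower. Against immature neurons 10.7% of 7471 genes were higher and 12.7% lower without mixed barcodes, and 9.9% of 8779 higher and 9.77% lower with all cells. List counts below use 1.5-fold and 20 UMIs. By that mark, with all cells, 17.2% of 11706 genes were higher and 23.1% lower than in mature neurons. Against immature neurons the shares with all cells were 19.7% higher and 17.5% lower of 12554 genes. With 1 library of each genotype these are counts of size, not of tests, and a count of 0 UMIs allows up to 3, which is 5.996 CPM in 60TM and 3.75 CPM in WT for Cajal-Retzius cells and 4.19 CPM in 60TM and 9.87 CPM in WT for mature neurons.

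Several transcription factors were higher in Cajal-Retzius cells than in mature neurons of both libraries. Nhlh2 (chromosome 3, 102010076 to 102015492, plus strand) had 1065 (60TM) and 898 (WT) CPM in Cajal-Retzius cells, against 1.40 (60TM) and 3.29 (WT) CPM in mature neurons and 88.5 (60TM) and 112 (WT) CPM in immature neurons. Ebf3, a helix-loop-helix factor of the Ebf family, had 219.8 (60TM) and 318 (WT) CPM, against 0 CPM in mature neurons of both libraries. Barhl2, a homeobox gene, had 79.9 (60TM) and 78.8 (WT) CPM and also 0 CPM there. All 3 genes were thus found in Cajal-Retzius cells of both libraries. Tbr1, a T-box factor of early glutamatergic neurons, had 422 (60TM) and 288 (WT) CPM, against 26.6 (60TM) and 23.04 (WT) CPM in mature neurons. Nr2f2 (COUP-TFII) had 654 (60TM) and 849.5 (WT) CPM, against 93.6 (60TM) and 16.5 (WT) CPM. Emx2, a homeobox gene of the medial cortex, had 358 (60TM) and 393 (WT) CPM, against 8.39 (60TM) and 13.2 (WT) CPM. The list of 32 identity and related transcription factors had 23 measured members (at least 20 UMIs), of which 17 were at least 1.5-fold higher than in mature neurons in both libraries and 3 lower, with a median log2 ratio of 3.60, beside 18.2% higher and 22.9% lower among 9996 genes with a median of -0.04. Emx1 and Meis2 were among the 3 lower ones. Against immature neurons the list split, with 14 of 25 measured members higher (56%) and 8 lower (32%). Among all genes 19.9% were higher and 20.7% lower there. Nr2f1, Emx1, Meis2, Bhlhe22, Lhx2 and Eomes were among those lower than in immature neurons. This list was drawn from genes known in Cajal-Retzius cells, so its direction is a description of the label. The noncoding RNA Lhx1os, whose gene starts beside Lhx1 on the opposite strand, had 374 (60TM) and 383 (WT) CPM and 0 CPM in mature neurons. In the annotation used for positions the genes do not overlap, with Lhx1 reaching 84525535 and Lhx1os beginning at 84525660 on chromosome 11.

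Outside the transcription factors, Ndnf, a secreted neurotrophic protein (chromosome 6, 65671590 to 65712326, plus strand), had 4964 (60TM) and 4766 (WT) CPM, against 2.80 (60TM) and 3.29 (WT) CPM in mature neurons, 1.01 (60TM) and 0 (WT) CPM in immature neurons and 171 (60TM) and 231 (WT) CPM in interneurons. After thinning to 2000 UMIs per cell (51 of 54 cells in 60TM and 87 of 91 in WT were deep enough), it was seen in 100% of 60TM cells and 100% of WT cells, as before thinning, and in 0% of thinned mature and immature neurons of both libraries. Cacna2d2, an auxiliary subunit of voltage-gated calcium channels that binds gabapentin (chromosome 9, 107399612 to 107529343, plus strand), had 1391 (60TM) and 1242 (WT) CPM, against 11.2 (60TM) and 3.29 (WT) CPM in mature neurons, 1.01 (60TM) and 0.863 (WT) CPM in immature neurons and 67.7 (60TM) and 28.5 (WT) CPM in interneurons. It was seen in 88.2% of 60TM cells and 87.4% of WT cells after thinning (98.1% in 60TM and 97.8% in WT before), against 2.63% of mature neurons in 60TM and 0% in WT. Both genes were higher in Cajal-Retzius cells than in each of the other neuron sets in each library. Cdkn1c, an inhibitor of the cell cycle (p57), had 266 (60TM) and 432 (WT) CPM, and Nxph4, a neurexophilin, 306 (60TM) and 330.3 (WT) CPM, with 0 CPM of each in mature neurons. Cxcr4, the receptor that holds migrating Cajal-Retzius cells at the meninges, had 148 (60TM) and 170.2 (WT) CPM, against 1.40 (60TM) and 0 (WT) CPM in mature neurons and 72.9 (60TM) and 60.4 (WT) CPM in immature neurons. Its ligand Cxcl12 was present in the same set of cells, at 424 (60TM) and 598 (WT) CPM, against 41.9 (60TM) and 32.9 (WT) CPM in mature and 2.01 (60TM) and 5.18 (WT) CPM in immature neurons. Cd274, the immune checkpoint ligand PD-L1, had 204 (60TM) and 210.2 (WT) CPM and 0 CPM in mature neurons. Diablo, a mitochondrial protein that promotes cell death once released, had 542 (60TM) and 627 (WT) CPM, and its ratio to mature neurons was 35.2 (19.4 to 71.4) in 60TM and 23.8 (11.99 to 55.4) in WT. Of the 15 genes highest over mature neurons, the others were Lhx1os, Ebf3 and Nhlh2 (above), Tmem163, Shisal2b, Syndig1l, Epb41l2, Pnoc and Cib2. With all cells, Slc17a6, Gdf5, Emx2 and Islr stood among the 15 in place of Cdkn1c, Tmem163, Cd274 and Epb41l2.

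**Figure D2:**
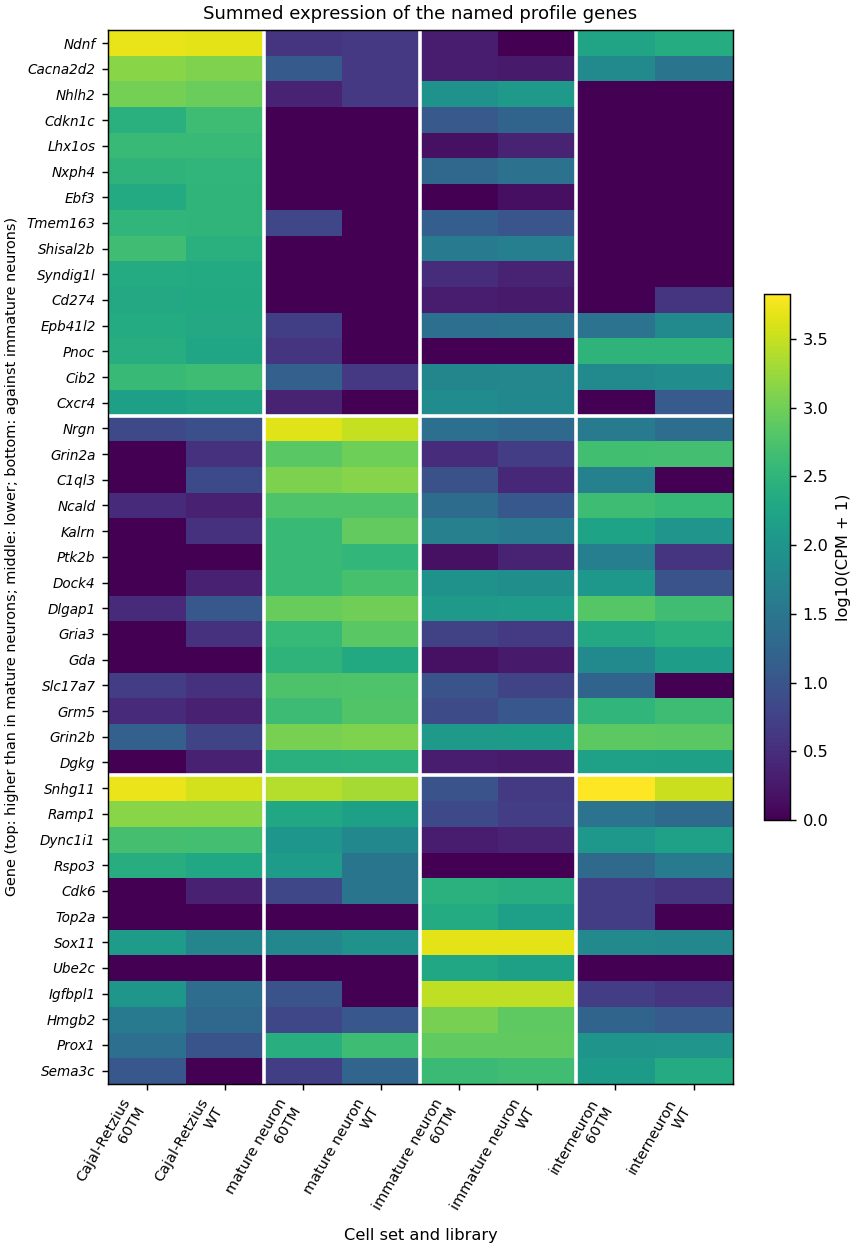
Colour shows log10(CPM + 1) of summed UMIs, without mixed barcodes, for each gene (rows) in Cajal-Retzius cells, mature neurons, immature neurons and interneurons (columns, 60TM left of WT in each pair). The top block holds the 15 genes highest over mature neurons, the middle block 14 of the 15 lowest, and the bottom block genes named against immature neurons; Ndnf and Cacna2d2 are brightest in the 2 Cajal-Retzius columns, and Nrgn and Grin2a are dark there.

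Of the transmitter genes, Cajal-Retzius cells held that of vesicular glutamate transporter 2 and nearly none of those for GABA. Slc17a6, the gene of that transporter, had 469.7 (60TM) and 483 (WT) CPM in Cajal-Retzius cells, against 23.8 (60TM) and 0 (WT) CPM in mature neurons and 45.8 (60TM) and 31.1 (WT) CPM in immature neurons. Slc17a7, the gene of transporter 1, had 3.997 (60TM) and 2.50 (WT) CPM, against 569 (60TM) and 586 (WT) CPM in mature neurons, whose rule used it. Gad1, which makes GABA, had 1.999 (60TM) and 2.50 (WT) CPM, against 1761 (60TM) and 2257 (WT) CPM in interneurons, and Gad2 1.999 (60TM) and 3.75 (WT) CPM, against 2315 (60TM) and 3188 (WT) CPM. Among cells thinned to 2000 UMIs, Slc17a6 was seen in 52.9% of 60TM cells and 62.1% of WT cells (88.9% in 60TM and 92.3% in WT before thinning), against 5.67% of immature neurons in 60TM and 9.01% in WT. Reln itself was also in interneurons, at 191 (60TM) and 319 (WT) CPM, against 2626 (60TM) and 2154 (WT) CPM in Cajal-Retzius cells, and Pnoc, the precursor of nociceptin, was at 244 (60TM) and 185 (WT) CPM in Cajal-Retzius cells, against 303 (60TM) and 310.3 (WT) CPM in interneurons. Reln, Ndnf and Pnoc were thus also detected in the interneuron set, Reln and Ndnf at lower levels than in Cajal-Retzius cells. Gad1 and Gad2, of which the interneuron rule made use, were nearly absent from Cajal-Retzius cells. Scrublet placed 5 of the 10 interneurons in 60TM and 5 of the 11 in WT among its highest scores. In 60TM 1 interneuron held 24 of the 49 UMIs of the 4 Cajal-Retzius rule genes.

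Receptors for glutamate and GABA stood lower than in mature neurons. Among all genes 22.9% were at least 1.5-fold lower than in mature neurons in both libraries and 18.2% higher. Of 18 ionotropic glutamate receptor genes 13 were measured, of which 10 were at least 1.5-fold lower in both libraries and 1 higher. Of 18 GABA and glycine receptor genes 13 were measured, of which 10 were lower and 0 higher, and all 4 measured metabotropic glutamate receptor genes of 7 were lower. Grin2a, an NMDA receptor subunit, had 0 (60TM) and 2.50 (WT) CPM, against 709 (60TM) and 968 (WT) CPM in mature neurons, and Grin2b had 13.99 (60TM) and 5.005 (WT) CPM, against 1091 (60TM) and 1221 (WT) CPM. Gria3, an AMPA receptor subunit, had 0 (60TM) and 2.50 (WT) CPM, against 363 (60TM) and 714 (WT) CPM, and Gria2, the subunit that limits calcium entry, 632 (60TM) and 587 (WT) CPM, against 2574 (60TM) and 4529 (WT) CPM. Grin2a and Gria3 were thus near 0, while Gria2 was lower but well detected. Gria4 was the exception, with a ratio of 4.96 (2.75 to 9.48) in 60TM and 2.47 (1.34 to 4.99) in WT. Gabra2, a GABA-A receptor subunit, had 27.98 (60TM) and 36.3 (WT) CPM, against 278 (60TM) and 415 (WT) CPM, and Gabbr1, a GABA-B subunit, 272 (60TM) and 279 (WT) CPM, against 412 (60TM) and 349 (WT) CPM, which fell short of the 1.5-fold mark in WT. With all cells, 3 of 5 metabotropic genes were lower, beside 23.1% of all genes. Against immature neurons the 3 lists differed, beside 19.9% higher and 20.7% lower of 11436 genes. Of 10 measured ionotropic genes 6 were higher in Cajal-Retzius cells and 3 lower, and of 12 GABA and glycine receptor genes 5 were higher and 3 lower. Of 4 metabotropic genes 1 was higher (Grm2) and 3 lower, with a median log2 ratio of -1.80. With all cells 1 of these 4 was higher and 1 lower, beside 19.7% higher and 17.5% lower of all genes.

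Ion channels split in the same way. Of 33 genes of voltage-gated sodium, potassium and HCN channels 32 were measured against mature neurons. Of these 21 were lower (65.6%) and 8 higher (25%), with a median log2 ratio of -1.85. Among all genes 22.9% were lower and 18.2% higher. Against immature neurons 19 of 30 were higher (63.3%) and 6 lower (20%), with a median of 1.93, beside 19.9% higher and 20.7% lower of all genes. Scn8a, a sodium channel of the axon initial segment, had 21.98 (60TM) and 27.5 (WT) CPM, against 261 (60TM) and 418 (WT) CPM in mature neurons, and Scn2a 77.9 (60TM) and 78.8 (WT) CPM, against 496 (60TM) and 402 (WT) CPM in mature and 19.1 (60TM) and 19.4 (WT) CPM in immature neurons. Scn2a therefore lay between the 2 other sets in both libraries. Kcnb2, a delayed-rectifier potassium channel, went the other way, at 366 (60TM) and 440.4 (WT) CPM, against 37.7 (60TM) and 39.5 (WT) CPM in mature neurons. Kcnc2 had 71.9 (60TM) and 71.3 (WT) CPM, against 8.39 (60TM) and 26.3 (WT) CPM, and Hcn4, a pacemaker channel, 31.98 (60TM) and 41.3 (WT) CPM and 0 CPM in mature neurons. Of 16 measured genes of calcium channels (17 listed), 9 were lower than in mature neurons (56.25%) and 3 higher. The 3 were the auxiliary subunits Cacna2d1, Cacna2d2 and Cacng2, a share of 18.75%, near the 18.2% of all genes.

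Genes of both sides of the synapse were mostly lower than in mature neurons. Of 28 synaptic vesicle and release genes, all measured, 18 were lower (64.3%) and 0 higher. Of 18 measured postsynaptic density genes (19 listed) 14 were lower (77.8%) and 1 higher. Among all genes 22.9% were lower and 18.2% higher. Camk2a, a kinase of the postsynaptic density, had 19.99 (60TM) and 5.005 (WT) CPM, against 692 (60TM) and 895 (WT) CPM in mature neurons. Nrgn, the gene of neurogranin, had 5.996 (60TM) and 7.51 (WT) CPM, against 4397 (60TM) and 3127 (WT) CPM. Syt1, the calcium sensor of vesicle release, came closer, with 787 (60TM) and 889.6 (WT) CPM, against 1057 (60TM) and 1247 (WT) CPM in mature and 35.2 (60TM) and 42.3 (WT) CPM in immature neurons. The rule for mature neurons used Syt1 and also Snap25, which is among the lower vesicle and release genes. Homer2 was the member above mature neurons, at 172 (60TM) and 171 (WT) CPM, against 51.7 (60TM) and 26.3 (WT) CPM. The 15 genes lowest against mature neurons included Nrgn, Grin2a, C1ql3, Ncald, Kalrn, Ptk2b, Dock4, Dlgap1, Gria3, Gda, Slc17a7, Grm5, Grin2b and Dgkg. Of these, Slc17a7 was in the rule for mature neurons. Ptk2b and Gda had 0 UMIs in Cajal-Retzius cells of both libraries. Against immature neurons 14 of 28 vesicle and release genes were higher (50%) and 3 lower (10.7%), beside 19.9% and 20.7% of all genes.

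**Figure D3:**
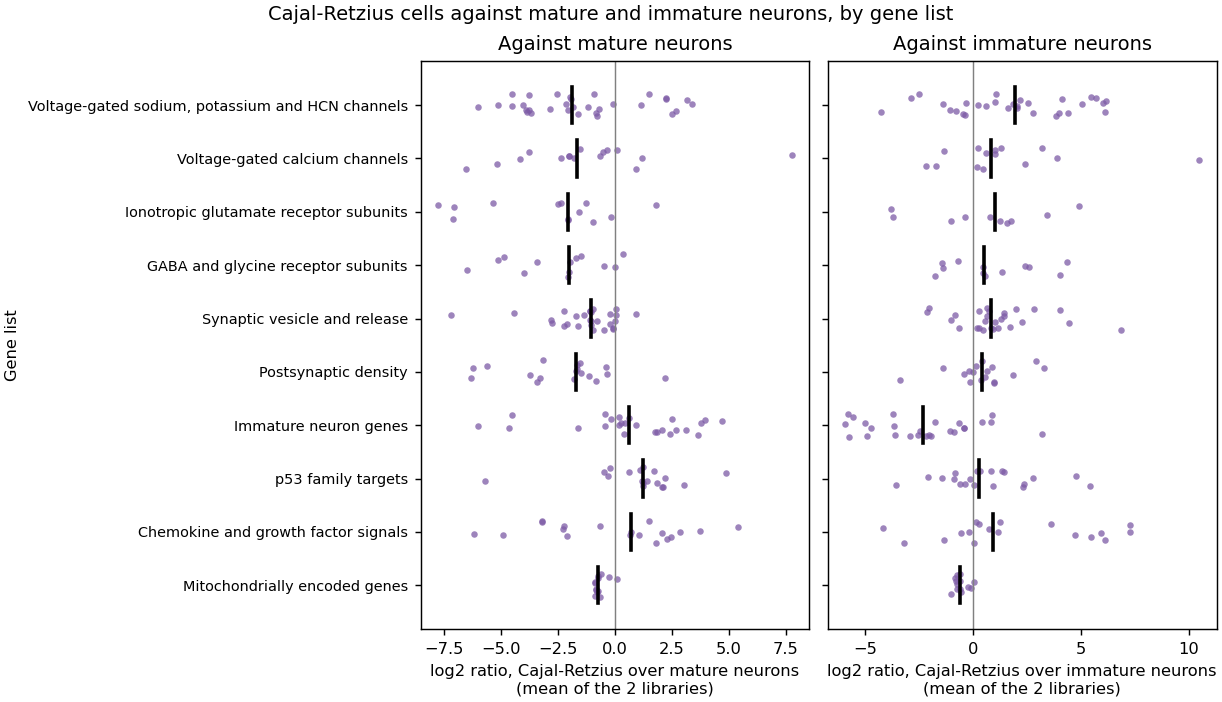
Each point is 1 gene of the list named on the y axis, placed at its log2 ratio of Cajal-Retzius cells over mature neurons (left) or over immature neurons (right), the mean of the 2 libraries, without mixed barcodes; black bars are list medians. Channel, receptor and synapse lists lie left of 0 against mature neurons (medians -1.85, -1.65, -2.04, -1.99, -1.04 and -1.68 from the top), and their medians lie right of 0 against immature neurons.

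Most genes of young neurons were lower in Cajal-Retzius cells than in immature neurons. Among all genes 20.7% were at least 1.5-fold lower than in immature neurons in both libraries and 19.9% higher. Of 26 genes of young neurons, all measured, 20 were at least 1.5-fold lower than in immature neurons in both libraries and 3 higher (Stmn2, Stmn3 and Gap43). The rule of the comparison set used Dcx, Neurod1, Prox1, Igfbpl1 and Neurod2 of these, all of which are among the lower genes. Sox11, which the rule did not use, had 132 (60TM) and 53.8 (WT) CPM, against 4697 (60TM) and 4746 (WT) CPM in immature neurons, and Sox4 269.8 (60TM) and 229 (WT) CPM, against 3445 (60TM) and 2848 (WT) CPM. Gap43, a growth-cone protein, had 979 (60TM) and 1089.7 (WT) CPM, against 105 (60TM) and 122 (WT) CPM in immature neurons and 423 (60TM) and 13.2 (WT) CPM in mature neurons. Stmn1, a microtubule regulator, had 3605 (60TM) and 3414 (WT) CPM, against 4652 (60TM) and 4681 (WT) CPM in immature and 787 (60TM) and 211 (WT) CPM in mature neurons. Gap43 and Stmn1 in mature neurons also differed between the libraries. The 8 genes highest over immature neurons were Ndnf, Cacna2d2, Snhg11, Ramp1, Dync1i1, Rspo3, Ebf3 and Pnoc. Ramp1, a partner protein of the receptor for calcitonin gene-related peptide, had 1403 (60TM) and 1394 (WT) CPM, against 6.04 (60TM) and 3.88 (WT) CPM in immature and 190.1 (60TM) and 148 (WT) CPM in mature neurons. Rspo3, an enhancer of Wnt signalling, had 239.8 (60TM) and 199 (WT) CPM, against 0 CPM in immature neurons of both libraries. The 8 lowest were Cdk6, Top2a, Sox11, Ube2c, Igfbpl1, Hmgb2, Prox1 and Sema3c, of which Igfbpl1 and Prox1 were in the rule of that set. Cdk6, Top2a, Ube2c and Hmgb2 are genes of dividing cells, and the immature set held 926 CPM of dividing-cell markers in 60TM and 677 CPM in WT.

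Secreted signals other than reelin were among the genes above both neuron sets. Of 32 chemokine and growth factor genes 20 were measured against mature neurons, of which 9 were higher (45%) and 7 lower (35%), beside 18.2% higher and 22.9% lower of all genes, so the list went both ways. Against immature neurons 18 were measured, of which 9 were higher and 2 lower, beside 19.9% and 20.7%. Pdgfa, a growth factor for oligodendrocyte precursors, had 284 (60TM) and 285 (WT) CPM, against 83.9 (60TM) and 55.95 (WT) CPM in mature and 5.03 (60TM) and 4.31 (WT) CPM in immature neurons. Il34, a ligand of the microglial receptor CSF1R, had 59.96 (60TM) and 50.05 (WT) CPM, against 9.78 (60TM) and 9.87 (WT) CPM and 0.503 (60TM) and 0 (WT) CPM. Wnt7b had 81.9 (60TM) and 71.3 (WT) CPM, against 16.8 (60TM) and 6.58 (WT) CPM and 4.02 (60TM) and 9.92 (WT) CPM. The neuropeptide precursor Nppc, of C-type natriuretic peptide, had 148 (60TM) and 209 (WT) CPM, against 5.59 (60TM) and 13.2 (WT) CPM in mature and 1.51 (60TM) and 1.73 (WT) CPM in immature neurons, and Penk, of enkephalins, 114 (60TM) and 126 (WT) CPM, against 9.78 (60TM) and 0 (WT) CPM and 0 (60TM) and 0 (WT) CPM. Bdnf ran the other way, at 5.996 (60TM) and 1.25 (WT) CPM, against 144 (60TM) and 267 (WT) CPM in mature neurons.

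The adaptor of the reelin pathway was lower in Cajal-Retzius cells than in mature neurons, while the pathway as a list was not. Of 32 pathway genes 27 were measured, of which 3 were higher than in mature neurons (11.1%) and 5 lower (18.5%), both shares under the 18.2% and 22.9% of all genes, with a median log2 ratio of -0.05. Against immature neurons 5 of 30 were higher (16.7%) and 10 lower (33.3%), with a median of -0.02, beside 19.9% and 20.7% of all genes. Dcx, which the rule of immature neurons used, is among the lower ones. With all cells 9 of 31 were higher (29.0%) and 4 lower (12.9%), beside 19.7% higher and 17.5% lower of all genes. Dab1, the adaptor, had 7.99 (60TM) and 17.5 (WT) CPM, against 154 (60TM) and 257 (WT) CPM in mature and 32.7 (60TM) and 47.9 (WT) CPM in immature neurons. Vldlr had 43.97 (60TM) and 45.04 (WT) CPM, against 92.2 (60TM) and 98.7 (WT) CPM and 17.1 (60TM) and 20.7 (WT) CPM, and Lrp8 43.97 (60TM) and 57.6 (WT) CPM, against 58.7 (60TM) and 125 (WT) CPM and 260.0 (60TM) and 224 (WT) CPM. Dab1 was thus lower than in both sets, but with all cells it had 29.98 (60TM) and 21.1 (WT) CPM, against 38.4 (60TM) and 45.7 (WT) CPM in immature neurons, under 1.5-fold in 60TM. Vldlr was lower than in mature and higher than in immature neurons. Lrp8 was lower than in immature neurons, and against mature neurons it fell short of the 1.5-fold mark in 60TM. Pafah1b1, the gene of LIS1, was near the level of mature neurons, at 649.5 (60TM) and 639 (WT) CPM, against 799 (60TM) and 559.5 (WT) CPM.

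Targets of the p53 family stood higher than in mature neurons. Of 27 such genes 18 were measured, of which 9 were at least 1.5-fold higher in both libraries (50%) and 1 lower, with a median log2 ratio of 1.24, beside 18.2% higher and 22.9% lower of all genes. With all cells 8 of 20 were higher (40%) and 3 lower (15%), beside 17.2% higher and 23.1% lower of all genes. Against immature neurons 9 of 20 were higher (45%) and 5 lower (25%), with a median of 0.24, beside 19.9% and 20.7%. Phlda3, a p53-induced repressor of AKT, had 134 (60TM) and 176 (WT) CPM, against 2.80 (60TM) and 0 (WT) CPM in mature and 6.04 (60TM) and 5.18 (WT) CPM in immature neurons. Ccng1, the gene of cyclin G1, had 75.9 (60TM) and 60.1 (WT) CPM, against 32.1 (60TM) and 19.7 (WT) CPM and 11.1 (60TM) and 16.8 (WT) CPM, and Perp 41.97 (60TM) and 18.8 (WT) CPM, against 0 CPM in mature neurons and 0.503 (60TM) and 0.863 (WT) CPM in immature neurons. Cdkn1a, a well-known p53 target, had 21.98 (60TM) and 13.8 (WT) CPM, against 1.40 (60TM) and 0 (WT) CPM in mature and 3.02 (60TM) and 3.88 (WT) CPM in immature neurons. Trp53 had 27.98 (60TM) and 35.03 (WT) CPM, against 20.96 (60TM) and 19.7 (WT) CPM in mature and 133 (60TM) and 139 (WT) CPM in immature neurons. Of 18 measured genes of the apoptosis machinery (30 listed) 3 were higher than in mature neurons, Bbc3 and Diablo among them, and 3 lower, shares of 16.7% that lie under those of all genes, and with all cells 3 of 23 were higher and 7 lower.

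Genes of axon guidance and adhesion were mostly lower than in mature neurons. Of 44 measured genes (48 listed) 24 were lower (54.5%) and 11 higher (25%), with a median log2 ratio of -1.83, beside 22.9% lower and 18.2% higher of all genes. Robo2, a receptor for Slit proteins, was among the higher ones, at 389.7 (60TM) and 439 (WT) CPM, against 81.1 (60TM) and 168 (WT) CPM. Against immature neurons 15 of 42 were higher and 15 lower (35.7% each), beside 19.9% higher and 20.7% lower of all genes. Mitochondrially encoded genes were lower than in mature neurons for 8 of 13 and higher for 0 (median log2 ratio -0.75), for example mt-Co1 at 1703 (60TM) and 1641 (WT) CPM, against 3045 (60TM) and 2995 (WT) CPM. With all cells 1 of 13 was lower (mt-Nd1), with a median of -0.63, so the count rests on leaving out mixed barcodes. Of 6 measured genes of MHC class I presentation (11 listed) 4 were higher, among them H2-D1 at 73.9 (60TM) and 57.6 (WT) CPM, against 1.40 (60TM) and 19.7 (WT) CPM, and with all cells 1 of 8 was higher. Of 22 measured immediate early and dissociation genes (30 listed) 9 were higher and 5 lower, and with all cells 8 of 26 were higher and 9 lower. Of 19 measured cholesterol synthesis genes 0 were higher and 0 lower, and with all cells 2 of 22 were higher. The shares of all genes with all cells were 17.2% higher and 23.1% lower.

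Individual members varied in some of these genes and little in others. Each cell was thinned to 5000 UMIs, which kept 48 of 54 cells in 60TM and 84 of 91 in WT, and the Fano factor (variance over mean) had a median of 1.16 over 885 genes in 60TM and 1.17 over 866 genes in WT, where pure sampling gives about 1. Ndnf was found in every thinned cell, with a median of 24 UMIs in 60TM (highest 45) and 23.5 in WT (highest 63). Its Fano factor was 2.94 in 60TM and 3.20 in WT, near that of Calb2 below. Ndnf had a mean of 25.2 UMIs in 60TM and 23.3 in WT, against 2.94 in 60TM and 2.15 in WT for Calb2. Counts of 0 therefore do not compare how far these genes vary. Cacna2d2 had a median of 6 in both libraries, and 0% of 60TM cells and 2.38% of WT cells had 0 UMIs. Calb2, the gene of calretinin, a classical marker of these cells, had a median of 2 UMIs in 60TM (0 to 9) and 1 in WT (0 to 15), and 31.2% of 60TM cells and 36.9% of WT cells had 0. Its Fano factor was 2.90 in 60TM and 3.54 in WT. Nhlh2 had Fano factors of 2.78 in 60TM and 3.10 in WT, and Id4, an inhibitor of helix-loop-helix factors, 4.43 in 60TM and 3.04 in WT. Slc17a6 varied less, with Fano factors of 1.42 in 60TM and 1.29 in WT. Noncoding RNAs led the list, with Malat1 at 57.3 in 60TM and 60.3 in WT and Meg3 at 5.09 in 60TM and 7.24 in WT. Reln, which the rule used, had 2.55 in 60TM and 2.18 in WT.

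**Figure D4:**
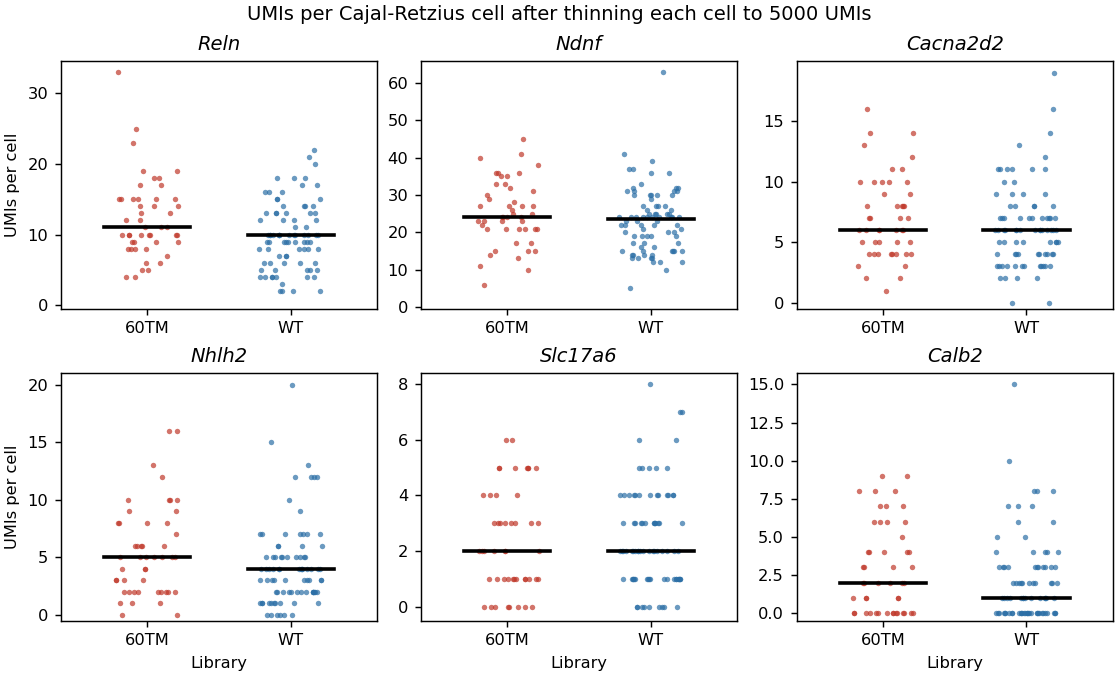
Each point is 1 Cajal-Retzius cell without mixed barcodes, thinned to 5000 UMIs; the y axis gives UMIs of the gene named above each panel, for 60TM (left) and WT (right), and black bars are medians. Ndnf is above 0 in every cell of both libraries, while Calb2, whose median level is lower, is 0 in 31.2% of 60TM cells and 36.9% of WT cells.

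The comparison of genotypes asks how these neurons differ in mice with a human transgene of an astrocyte protein. Members made up 0.923% (0.727 to 1.16) of passing barcodes in 60TM, against 1.66% (1.36 to 2.01) in WT, which makes a 60TM-to-WT ratio of 0.555 (0.408 to 0.753). Without mixed barcodes the shares were 0.665% (0.500 to 0.866) in 60TM and 1.41% (1.14 to 1.73) in WT, a ratio of 0.470 (0.329 to 0.665). A share depends on all other cells captured. Immature neurons had a ratio of 0.657 (0.540 to 0.798) by the same count without mixed barcodes, and mature neurons 1.54 (0.879 to 2.79). Among the 4 neuron sets together, Cajal-Retzius cells were 18.2% (14.0 to 23.05) of 297 neurons in 60TM and 25.6% (21.1 to 30.4) of 356 in WT, a ratio of 0.711 (0.498 to 1.01), whose interval reaches 1. Whether the mice of a library differed from each other was not tested, and genotype and the dissociation of each library cannot be told apart.

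With all members included, glial genes led the difference between genotypes. Among the 4109 genes that reached 100 UMIs over all members, 1.36% (56 genes) were 2-fold higher or more in 60TM and 0.122% (5 genes) at least 2-fold lower. Gfap, the astrocyte filament gene, had 123 CPM in 60TM, against 3.51 CPM in WT, a ratio of 34.99 (13.3 to 130.5). Slc1a3, an astrocyte glutamate transporter, had 453 CPM in 60TM, against 91.3 CPM in WT, a ratio of 4.96 (3.997 to 6.19), and Clu, clusterin, 506 CPM in 60TM, against 117 CPM in WT, a ratio of 4.33 (3.57 to 5.28). The 12 genes ranked highest were Gfap, Ttr, Mt1, Mt2, Slc1a3, Pla2g7, Clu, Neat1, Apoe, Aldoc, Bcas1 and Ptprz1. Without mixed barcodes Gfap rested on 10 UMIs in 60TM and 2 in WT, Slc1a3 had 7.99 CPM in 60TM, against 15.01 CPM in WT, a ratio of 0.532 (0.125 to 1.76), and Clu 19.99 CPM in 60TM, against 42.5 CPM in WT, a ratio of 0.470 (0.207 to 0.973). Slc1a3 and Clu thus turned in direction, and the interval for Slc1a3 spans 1. Gfap, Slc1a3 and Clu were in the marker lists that defined mixed barcodes, so their fall is partly fixed by that limit. Apoe, given next, was not in them. Apoe, the main lipid carrier of astrocytes, had 2723 CPM in 60TM, against 751 CPM in WT, a ratio of 3.63 (3.36 to 3.92) with all members, and 164 CPM in 60TM, against 96.3 CPM in WT, a ratio of 1.70 (1.23 to 2.35) without mixed barcodes.

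Without the mixed barcodes, 0.316% of 2533 genes (8 genes) were at least 2-fold higher in 60TM and 0.079% (2 genes) at least 2-fold lower, and the median log2 ratio over these genes was -0.02. By the same counts without mixed barcodes, 0.398% of 6278 genes were higher and 0.0319% lower in immature neurons, and 5.02% of 2192 higher and 3.42% lower in mature neurons, where cells were few. The intervals of 296 of the 2533 genes left out 1, most of them with ratios under 2-fold. Among the identity genes, Ndnf had 4964 CPM in 60TM, against 4766 CPM in WT, a ratio of 1.04 (0.990 to 1.096), and Slc17a6 469.7 CPM in 60TM, against 483 CPM in WT, a ratio of 0.972 (0.823 to 1.15). The rule genes, given as levels only, had 2626 (60TM) and 2154 (WT) CPM for Reln, 322 (60TM) and 382 (WT) CPM for Trp73, 725 (60TM) and 753 (WT) CPM for Lhx1 and 97.9 (60TM) and 123 (WT) CPM for Lhx5. Calb2 had 639.5 CPM in 60TM, against 448 CPM in WT, a ratio of 1.43 (1.22 to 1.66), and Nhlh2 1065 CPM in 60TM, against 898 CPM in WT, a ratio of 1.19 (1.06 to 1.33), while with mixed barcodes both ratios were near 1, at 0.993 (0.866 to 1.14) for Calb2 and 0.994 (0.900 to 1.098) for Nhlh2.

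Several of the genes higher in 60TM Cajal-Retzius cells were also higher in other cells of that library. Hnrnpa0, an RNA-binding protein (chromosome 13, 58125879 to 58128556, minus strand), had 429.7 CPM in 60TM, against 151 CPM in WT, a ratio of 2.84 (2.26 to 3.58). Its ratio was 2.51 (2.31 to 2.73) in immature neurons and 2.53 (1.71 to 3.86) in mature neurons, and its level in all other passing barcodes was 259 CPM in 60TM and 114 CPM in WT. Eid2, an inhibitor of the coactivator p300, had 122 CPM in 60TM, against 50.05 CPM in WT, a ratio of 2.44 (1.61 to 3.73), with 2.39 (1.87 to 3.09) in immature neurons. Purb, a single-strand DNA- and RNA-binding protein, had 596 CPM in 60TM, against 340.3 CPM in WT, a ratio of 1.75 (1.48 to 2.07), with 1.55 (1.35 to 1.77) in immature neurons. AY036118, a noncoding RNA gene, had 198 CPM in 60TM, against 93.8 CPM in WT, a ratio of 2.11 (1.55 to 2.89), with 2.07 (1.69 to 2.54) in immature neurons. These 4 genes were higher in 60TM in both kinds of neuron. Ttr, the transthyretin gene of the choroid plexus, had 299.8 CPM in 60TM, against 15.01 CPM in WT, a ratio of 19.97 (11.1 to 39.5), beside 18577 CPM in 60TM and 4708 CPM in WT in the other barcodes and 13.8 (10.2 to 19) in immature neurons. Mt1, a metallothionein, had 154 CPM in 60TM, against 63.8 CPM in WT, a ratio of 2.41 (1.67 to 3.51), beside 5047 CPM in 60TM and 2056 CPM in WT in the other barcodes. Free RNA, that is RNA from outside the cell, was subtracted as 1 alternative, at 0.687% in 60TM and 0.508% in WT as set by microglial markers. It turned neither the Ttr nor the Mt1 ratio below 1. How much of the values of Ttr and Mt1 came from other cells was not tested.

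Other genes were higher in 60TM Cajal-Retzius cells, and for Shisal2b, Cpsf6 and Sfpq the ratios in immature neurons were at or under 1.07. For Mgat4c the interval in immature neurons is wide and takes in its Cajal-Retzius ratio. No ratio in immature neurons is given for Tshz2. Mgat4c, a glycosyltransferase gene (chromosome 10, 101681487 to 102391469, plus strand), had 146 CPM in 60TM, against 66.3 CPM in WT, a ratio of 2.20 (1.52 to 3.20), with 0.583 (0.0528 to 4.07) in immature neurons, and its level in the other barcodes was 5.24 CPM in 60TM and 4.95 CPM in WT. Tshz2, a zinc-finger homeobox gene (chromosome 2, 169633013 to 170071816, plus strand), had 119.9 CPM in 60TM, against 56.3 CPM in WT, a ratio of 2.13 (1.42 to 3.21). Shisal2b (chromosome 13, 104845283 to 104863893, minus strand) had 449.7 CPM in 60TM, against 265 CPM in WT, a ratio of 1.70 (1.40 to 2.05), with 0.838 (0.613 to 1.14) in immature neurons. Cpsf6, of the mRNA cleavage machinery, had 186 CPM in 60TM, against 95.1 CPM in WT, a ratio of 1.95 (1.43 to 2.68), with 0.963 (0.848 to 1.09) in immature neurons, and Sfpq, a splicing factor, 258 CPM in 60TM, against 150.1 CPM in WT, a ratio of 1.72 (1.33 to 2.22), with 1.07 (0.979 to 1.17). The cell with most Mgat4c UMIs held 8.22% in 60TM and 9.43% in WT of them, and that for Tshz2 10% in 60TM and 6.67% in WT. Whether the ratio in Cajal-Retzius cells differs from that in immature neurons was not tested. Sox11 was the remaining one of the 12 genes highest in 60TM, with 132 CPM in 60TM, against 53.8 CPM in WT, a ratio of 2.45 (1.64 to 3.69), but 1 cell held 39.4% in 60TM and 55.8% in WT of its UMIs. Igfbpl1, Dcx and Neurod1, which like Sox11 are genes of young neurons, were also at least 1.5-fold higher in 60TM, with 52, 22 and 25 UMIs there. In 60TM, 1 cell gave 29 of the 52 UMIs of Igfbpl1, which 6 of 54 cells carried, and in WT 1 cell gave 9 of 18, which 9 of 91 carried.

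The 12 genes lowest in 60TM members without mixed barcodes were Nr2f1, Nptx1, Cdkn1c, Rcan2, AI413582, Ddx3x, Msi1, Myo9a, Vegfa, Hmgn1, Tsc22d1 and Timm23. Nr2f1, the gene of the nuclear receptor COUP-TFI (chromosome 13, 78188973 to 78199757, minus strand), had 63.95 CPM in 60TM, against 140.1 CPM in WT, a ratio of 0.456 (0.298 to 0.681). In immature neurons its ratio was 0.998 (0.910 to 1.095), and with all members it was 0.539 (0.400 to 0.719). Its relative Nr2f2 had 654 CPM in 60TM, against 849.5 CPM in WT, a ratio of 0.769 (0.672 to 0.879). Nptx1, a secreted pentraxin that gathers AMPA receptors (chromosome 11, 119538719 to 119547753, minus strand), had 122 CPM in 60TM, against 229 CPM in WT, a ratio of 0.532 (0.392 to 0.715), and with all members 0.461 (0.359 to 0.588). Cdkn1c (chromosome 7, 143458339 to 143461050, minus strand) had 266 CPM in 60TM, against 432 CPM in WT, a ratio of 0.616 (0.500 to 0.754). Rcan2, an inhibitor of calcineurin, had 262 CPM in 60TM, against 424 CPM in WT, a ratio of 0.617 (0.501 to 0.757). Vegfa, the vascular growth factor, had 77.9 CPM in 60TM, against 139 CPM in WT, a ratio of 0.561 (0.379 to 0.815), and Cxcl12, outside the 12, 424 CPM in 60TM, against 598 CPM in WT, a ratio of 0.708 (0.600 to 0.835). Ebf3 had 219.8 CPM in 60TM, against 318 CPM in WT, a ratio of 0.692 (0.548 to 0.869), and Nhlh1, a relative of Nhlh2, 41.97 CPM in 60TM, against 85.1 CPM in WT, a ratio of 0.493 (0.287 to 0.815). Nr2f1 and AI413582 were the 2 genes of at least 100 UMIs past 2-fold. With all members the 12 lowest were Fxyd7, Nptx1, Mal, Cdkn1c, Ythdf2, Cxcl12, Zcchc12, Gpc1, Nr2f1, Ndn, Chgb and Nr2f2, led by Fxyd7, a regulator of the sodium pump, at 13.99 CPM in 60TM, against 90.5 CPM in WT, a ratio of 0.155 (0.0817 to 0.271) with all members and 0.192 (0.0844 to 0.384) without mixed barcodes. Of 20 measured identity transcription factors 0 were at least 1.5-fold higher in 60TM and 2 lower (Nhlh1 and Nr2f1), with a median log2 ratio of -0.15, beside 8.91% higher and 8.99% lower of 7709 genes. With all members 1 of 22 was higher and 4 lower, beside 10.4% higher and 7.58% lower of 9675 genes.

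**Figure D5:**
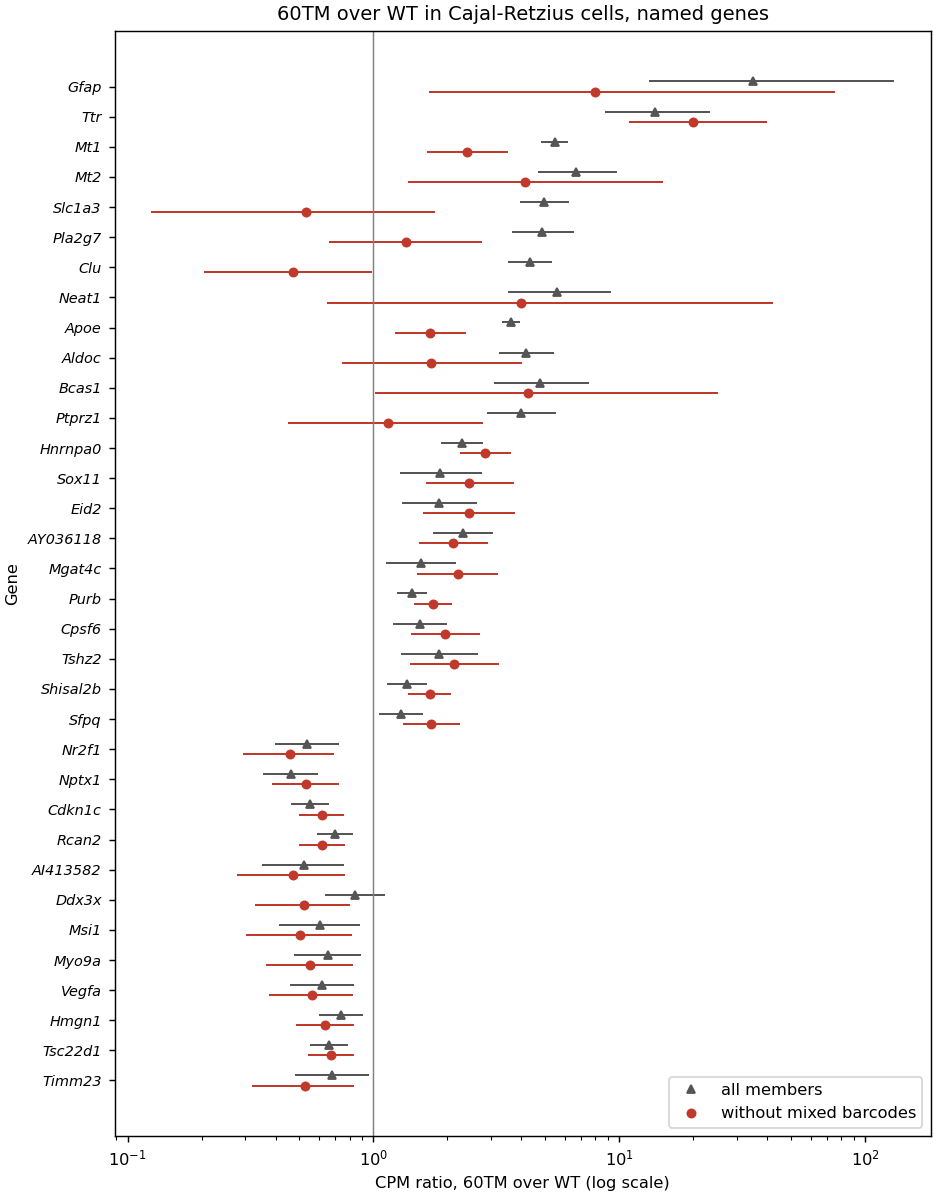
Points give the CPM ratio of 60TM over WT in Cajal-Retzius cells on a log scale, with 95% counting intervals, for the 12 genes highest with all members and the 12 highest and 12 lowest without mixed barcodes; grey triangles are all members and red circles those without mixed barcodes. Slc1a3 and Clu, both in the marker lists that defined mixed barcodes, cross from above 1 to below 1 without them. Hnrnpa0 stays above 1 and Nr2f1 below 1 under both.

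Gene lists differed between genotypes mainly with all members included. Of 15 measured interferon response genes (26 listed) 11 were at least 1.5-fold higher in 60TM and 0 lower, with a median log2 ratio of 1.48, beside 10.4% higher and 7.58% lower of 9675 genes. Bst2, whose product tethers enveloped viruses to the cell, had 34.98 CPM in 60TM, against 7.90 CPM in WT, a ratio of 4.43 (2.09 to 10.5), beside 169 CPM in 60TM and 61.95 CPM in WT in the other barcodes. Without mixed barcodes 4 of the list were measured, of which 1 was higher (Ifi27). Of 22 genes of the Nrf2 and oxidative stress list 10 were higher with all members and 0 lower, against 2 of 17 (Mt1 and Mt3) without mixed barcodes. Of 8 genes of MHC class I presentation 4 were higher with all members, against 1 of 4 higher (B2m) and 1 lower without. Of 13 mitochondrially encoded genes 5 were higher with all members, against 1 (mt-Atp8) without.

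Without mixed barcodes, 4 genes or fewer of each list were at least 1.5-fold higher in 60TM, beside 8.91% higher and 8.99% lower of 7709 genes. Of 15 immediate early and dissociation genes 4 were higher (26.7%; Fosb, Jun, Ier2 and Ier5) and 1 lower, and with all members 2 of 17 were higher. Jun, an early-response transcription factor, had 334 CPM in 60TM, against 205 CPM in WT, a ratio of 1.63 (1.30 to 2.03), beside 1.63 (1.41 to 1.89) in immature neurons and 1279 CPM in 60TM and 844 CPM in WT in the other barcodes. Of 17 cholesterol synthesis genes 4 were higher (23.5%) and 2 lower (11.8%), and with all members 2 of 22 were higher and 1 lower. Of 17 p53 family targets 3 were higher (17.6%; Cdkn1a, Bbc3 and Perp) and 1 lower, with a median log2 ratio of 0.23, and with all members 1 of 17 was higher. These shares of higher genes lie above that of all genes but rest on 3 or 4 genes each and fall with all members, and no test was possible. Of 12 postsynaptic density genes 3 were higher (Dlg2, Nlgn3 and Gphn) and 1 lower, and with all members 4 of 15 were higher and 1 lower. Without mixed barcodes the sodium, potassium and HCN channel, vesicle, reelin pathway and chaperone lists lay under the shares of all genes. Of 10 measured calcium channel genes 1 was higher (10%) and 0 lower. Of 23 measured sodium, potassium and HCN channel genes 2 were higher in 60TM and 2 lower. Of 25 vesicle and release genes 1 was higher and 2 lower. With all members 0 were higher and 4 lower (16%), beside 10.4% higher and 7.58% lower of 9675 genes. Of 24 measured reelin pathway genes 1 was higher (Dcx) and 2 lower (Efnb3 and Plat). With all members 6 of 29 were higher (20.7%), above the 10.4% of all genes, and 2 lower (6.90%). Of 19 chaperones 1 was higher and 0 lower.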

How the data were processed

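Single-cell RNA was measured in hippocampus of 60TM and WT mice, 1 library each. The deposited UMI counts per gene and barcode are raw, made with Cell Ranger 5.0.0 per the file headers, and GRCm38 is the build in the submitters' processing notes. Whether intronic reads were counted is not stated in the labels or headers. The deposited barcodes had already been called as cells. From them, barcodes with under 500 genes or over 15% mitochondrial UMIs were dropped, no barcode was removed as a doublet, and Scrublet (in scanpy 1.11.5) only scored them. UMIs were summed per cell set and library and scaled to 1000000 UMIs (CPM; Python 3.11.15, numpy 2.4.6, scipy 1.17.1, pandas 2.3.3, matplotlib 3.10.9). Ratios have exact conditional binomial intervals, levels Poisson and shares Clopper-Pearson ones, at 95%, and all cover counting error only. Only the ratio of 60TM over WT was run on simulated counts. Those were Poisson draws without spread between cells, so they cannot show how the intervals hold for real cells. Depth is 1000687 UMIs over 75 members in 60TM and 1138676 over 107 in WT. With 1 library a genotype there is no test.

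Members and gene lists were chosen with earlier results of these data known. Genes named are those with at least 100 UMIs and at least 2-fold in both libraries, the 15 highest and lowest against mature neurons and the 8 against immature neurons, and the 12 highest and lowest between genotypes, ranked by the interval bound nearest to 1. The Cajal-Retzius rule genes and mitochondrial, ribosomal protein, gene-model and sex-linked genes were left out of these ranks. Genes in the rules of the other neuron sets were kept. List members could be named too, counted at 1.5-fold with at least 20 UMIs. Where a set had 0 UMIs, a floor of 3 UMIs per set and library was used. Positions are from the GRCm38 annotation, which held 32235 of the 32285 genes. A few genes are not reported here. Alternatives changed the barcode filter, member rule, doublets, glial RNA, depth, scaling and count minimum.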

Additional observations from a re-analysis of the deposited data

How the results depend on the processing

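No paired analysis was possible because each genotype had 1 library. The share of members, 60TM over WT, had ratios from 0.470 to 0.594 over 6 alternatives, against 0.555 as reported, all below 1. The cause of the changes that follow was not tested unless stated. Settings without mixed barcodes were chosen after seeing the data.

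With all members, 56 genes were at least 2-fold higher in 60TM and 5 lower. Without mixed barcodes the counts were 8 higher and 2 lower, and they were 8 and 2 also with the highest Scrublet scores removed or with free RNA subtracted. At least 20 UMIs gave 377 higher and 172 lower, and at least 300 UMIs 17 and 1. Thinning to 2000 UMIs gave 5 and 0, in which fewer UMIs by construction leave fewer genes at 100. With at least 1 factor in the member rule, 306 genes were lower in 60TM.

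Against mature neurons 673 genes were higher and 873 lower in Cajal-Retzius cells. The counts were 273 and 72 after thinning, 1095 and 1767 at 20 UMIs, and 323 and 309 at 300 UMIs. Against immature neurons 869 were higher and 858 lower, with 210 and 296 after thinning and 398 and 455 at 300 UMIs. At 20 UMIs 1493 were higher.

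Some ratios of 60TM over WT turned below 1. With at least 1 factor in the rule they were 0.888 for Apoe, 0.458 for Clu, 0.691 for Mt1, 0.667 for Mt2 and 0.802 for Pla2g7. Clu was 0.639 with the highest Scrublet scores removed. Without mixed barcodes Clu was 0.470, and there 0.504 with Scrublet removal, 0.170 with free RNA subtracted, 0.546 with at least 1 factor, 0.426 after thinning and 0.495 as a mean over cells. Without mixed barcodes Slc1a3 was 0.532, and there 0.507 with free RNA subtracted and 0.566 with at least 1 factor. Ptprz1 was 0.981 without mixed barcodes and with at least 1 factor, and 0.682 without them after thinning, where Pla2g7 was 0.284. Of 683 ratios of named genes between genotypes under these alternatives, 463 stayed within the interval as reported, 202 moved outside it and 18 reversed. Of 451 against mature and 220 against immature neurons, 336 and 155 moved by at most 1.5 times, 115 and 65 moved by more, and 0 turned in direction.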

Other observations

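Single genes that belong to marker lists of other cell types were high in Cajal-Retzius cells while other genes of the list were lower or at 0. They were chosen after their values had been seen, and values are without mixed barcodes. Cenpf, a centromere protein of dividing cells, had 196 (60TM) and 146 (WT) CPM in Cajal-Retzius cells, against 0 (60TM) and 0 (WT) CPM in mature neurons, while Top2a, Cdk1 and Birc5 had 0 UMIs in both libraries and Mki67 9.99 (60TM) and 3.75 (WT) CPM. Gtse1, which acts in the cell cycle, is in none of these marker lists but in that of p53 family targets, and had 53.96 (60TM) and 52.5 (WT) CPM. Mia had 302 (60TM) and 241 (WT) CPM, against 4.19 (60TM) and 3.29 (WT) CPM in mature neurons, and Rgs5, a marker of pericytes, 93.9 (60TM) and 92.6 (WT) CPM, with Abcc9 and Pdgfrb at 0 in both libraries. C1ql1, a synapse-organizing protein that oligodendrocyte precursors also make, had 106 (60TM) and 98.8 (WT) CPM, with Gpr17 at 0 in both libraries, while Cspg4 of the same list was detected, at 51.96 (60TM) and 30.03 (WT) CPM.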
